A study of Mus musculus with 20 samples.

Results

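The genes examined here mark the endothelium, the cell layer that lines blood vessels, and were followed through bladder tumors and metastases of mice with and without drug treatment. The list named 10 genes: Tek, Tie1, Kdr, Flt1, Eng, Cdh5, Pecam1, Emcn, Vwf and Egfl7. A gene was taken where a row of the array carried its symbol alone, and 9 of the 10 were found in this way among 30142 measured genes, each on 1 row. The only row that carries Egfl7 also carries Mir126a, a microRNA gene that lies within it, so Egfl7 was given no value. All values are deposited log2 intensities, so a difference of 1 is 2-fold, and levels are compared between arrays for the same gene only.

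RNA came from formalin-fixed tissue of 20 samples of FVB/N mice. The groups were treated metastasis (n = 1), metastasis (n = 4), treated bladder (n = 3), bladder tumor (n = 7) and control bladder (n = 5). Every group, control bladders included, carried floxed Rb alleles and lacked p107. An adenovirus coding for Cre, placed in the bladder, started the tumors, and the labels give it for bladder tumor and treated bladder; recombination is then limited to cells the virus entered. Treated animals were given CM272, which inhibits both G9a (a histone methyltransferase) and DNA methyltransferases, daily at 5 mg/kg for 30 days, with cisplatin (CDDP) at 6 mg/kg once a week. Tissue of the treated group is labelled bladder and not bladder tumor. The labels name neither the organ of a metastasis nor separate animals for the numbered samples of a group, so the p-values reflect variation among samples that may be partly technical. The mean over a whole piece of tissue mixes cell types, and fewer endothelial cells cannot be told apart from less RNA per endothelial cell.

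As background, endothelial cells build new vessels under the control of a few receptor systems. Vascular endothelial growth factors act through the kinases Kdr and Flt1, angiopoietins act through Tek with its relative Tie1, and endoglin (Eng) is a co-receptor for ligands of the TGF-beta and BMP family. Cdh5 and Pecam1 hold neighbouring endothelial cells together, Emcn is a mucin-like surface protein of capillaries and veins, and Vwf is a clotting factor stored in endothelial granules and in platelets. In the bladder these vessels supply the lamina propria beneath the urothelium and the surrounding muscle.

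The arrays fell into 2 sets that cross the groups, and control bladders fell into both. In 8 arrays (metastasis 3 and 4, bladder tumor 3, 4 and 5, control bladder 4, 5 and 6) the deviations from the mean of all arrays never reached r = 0.2, across genes, with any second array, and these are called near-mean arrays below. The medians of all 20 arrays lay between 5.07 and 5.42, and since many member values lie near them, some endothelial rows may be close to background, which could not be measured. Of the 12 others, control bladder 1 and 2 stood apart by Xist, the RNA that silences an X chromosome in females, which read 10.76 and 10.88 there and at most 6.44 in every other array. Member medians against control, and Tek, are therefore also given without the near-mean arrays, which leaves control bladder 1 and 2 as the only controls. They are given, too, without control bladder 1 and 2. The gene lists further below were not refitted without control bladder 1 and 2.

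The 2 angiopoietin receptors were first compared. Tek, the receptor itself (also called Tie2), read 5.71 in the treated metastasis and 5.55, 5.58, 5.74 and 5.93 in metastasis 1 to 4. It read 5.92, 5.91 and 5.93 in treated bladder 1 to 3, while the 7 bladder tumors ran from 5.59 through a median of 5.79 to 6.01. The 5 control bladders read 6.77, 6.43, 5.83, 5.89 and 6.21 (control bladder 1, 2, 4, 5 and 6). Only control bladder 1, 2 and 6 lay above every tumor, and controls 4 and 5 lay within the tumor range. Tek averaged 5.78 ± 0.14 in bladder tumor (SD, n = 7) and 6.22 ± 0.39 in control bladder (n = 5), a difference of -0.44 (SE 0.14). It averaged 5.70 ± 0.17 in metastasis (n = 4), which is -0.52 from control (SE 0.16). These were the largest differences of any member in both comparisons, and neither passed in limma after Benjamini-Hochberg adjustment over all genes, with adjusted p of 0.999 for tumor and 0.676 for metastasis.

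Tie1, an orphan receptor that forms complexes with Tek, had nearly equal means in tumor and control. Tie1 read 5.47 in the treated metastasis and 5.50, 5.56, 5.63 and 5.76 in metastasis 1 to 4. It read 5.88, 5.89 and 5.77 in treated bladder 1 to 3, and the bladder tumors ran from 5.66 through 5.83 to 5.88. The control bladders read 6.07, 5.80, 5.53, 5.70 and 5.88, so they spanned the whole tumor range. Tie1 averaged 5.81 ± 0.07 in bladder tumor (n = 7) and 5.79 ± 0.20 in control bladder (n = 5), and the difference of 0.02 has a 95% interval of -0.17 to 0.20. Of the groups with more than 1 array, metastasis was lowest, at 5.61 ± 0.11 (n = 4), where Tie1 was -0.20 from bladder tumor with an adjusted p of 0.825 in limma; 3 of the 4 metastases lay below every tumor. The difference between Tek and Tie1 in their shift from control was not tested.

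The DNA upstream of these receptor genes is shown because the list is joined by shared expression in 1 cell type, and factors of the ETS family, among them Erg and Fli1, are known to bind the core GGAA in endothelial genes. RefSeq promoter windows of the assembly GRCm38.p6 were at hand for 6 of the 9 measured members. The 250 bases before the start site are printed below in the direction of the gene, as RefSeq's table places that start, for Tek (chr4:94739039-94739288, plus strand), Tie1 (chr4:118489850-118490099, minus strand) and Kdr (chr5:75978456-75978705, minus strand). The Tek and Kdr windows overlap the annotated span of their own genes, whose outermost ends lie further upstream. Capitals mark GGAA, or TTCC where it lies on the opposite strand.
Tek: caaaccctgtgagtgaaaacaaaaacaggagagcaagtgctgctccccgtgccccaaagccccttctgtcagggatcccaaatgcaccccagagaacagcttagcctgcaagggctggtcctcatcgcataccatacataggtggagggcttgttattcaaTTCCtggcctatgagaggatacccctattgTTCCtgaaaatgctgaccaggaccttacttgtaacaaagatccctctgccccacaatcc
Tie1: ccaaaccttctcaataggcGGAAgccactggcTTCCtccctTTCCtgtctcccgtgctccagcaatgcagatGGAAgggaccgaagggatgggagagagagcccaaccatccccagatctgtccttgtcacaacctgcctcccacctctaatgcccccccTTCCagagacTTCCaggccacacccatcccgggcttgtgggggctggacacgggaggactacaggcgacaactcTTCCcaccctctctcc
Kdr: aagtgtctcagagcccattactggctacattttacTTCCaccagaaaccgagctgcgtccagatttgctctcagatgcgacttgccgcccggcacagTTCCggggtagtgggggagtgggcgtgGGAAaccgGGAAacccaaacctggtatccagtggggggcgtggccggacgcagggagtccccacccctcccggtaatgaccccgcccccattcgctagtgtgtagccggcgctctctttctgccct
The Tek window holds 2 such cores, the Tie1 window 7 and the Kdr window 4. At least 1 core lies in 93.4% of all 32851 windows of this length, 4 or more lie in 33.4%, and 7 or more in 3.82%, and the median window holds 3. A match describes the letters and is not evidence of binding.

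Among the receptors for vascular endothelial growth factors, both Kdr (VEGFR2) and Flt1 (VEGFR1) had a lower mean in tumors than in controls, by like amounts. Kdr read 5.39 in the treated metastasis, the lowest of all 20 arrays, and 5.75, 5.59, 5.87 and 5.62 in metastasis 1 to 4. It read 5.79, 5.98 and 5.89 in treated bladder 1 to 3, and the tumors lay close together from 5.60 through 5.73 to 5.84. The control bladders read 6.32, 5.99, 5.90, 5.61 and 6.01. All controls except control bladder 5 lay above every tumor. The means were 5.74 ± 0.08 in bladder tumor (n = 7) and 5.97 ± 0.25 in control bladder (n = 5), a difference of -0.23 with a 95% interval of -0.44 to -0.02 before any adjustment, and limma gave an adjusted p of 0.999. The difference of Kdr was -0.14 without control bladder 1 alone and -0.11 without control bladder 1 and 2.

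Flt1, which also binds VEGF and in its soluble form traps it, read 6.13 in the treated metastasis and 5.64, 6.31, 5.83 and 5.77 in metastasis 1 to 4. It read 5.87, 5.67 and 6.02 in treated bladder 1 to 3. The bladder tumors ran from 5.69 through 5.89 to 6.05 and the control bladders read 6.39, 6.11, 6.14, 5.72 and 6.11. Of the controls, 4 lay above all tumors, as for Kdr, with control bladder 5 again the exception. The means were 5.89 ± 0.13 in bladder tumor (n = 7) and 6.10 ± 0.24 in control bladder (n = 5), and the difference of -0.21 had an adjusted p of 0.999 in limma. It was -0.13 without control bladder 1 and -0.10 without control bladder 1 and 2. Flt1 was the only member whose highest group was the single treated metastasis.

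Eng was lower in tumors by a like amount. It read 5.24 in the treated metastasis, again the lowest of all arrays, and 5.73, 5.45, 5.75 and 5.57 in metastasis 1 to 4. It read 5.58, 5.90 and 5.58 in treated bladder 1 to 3, with tumors from 5.36 through 5.52 to 5.68 and control bladders at 5.97, 5.96, 5.52, 5.60 and 5.64. Control bladder 1 and 2 lay above all tumors and the 3 other controls lay among them. Eng averaged 5.52 ± 0.11 in bladder tumor (n = 7) and 5.74 ± 0.21 in control bladder (n = 5), a difference of -0.22 with an adjusted p of 0.999 in limma. Without control bladder 1 and 2 it was -0.06.

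The junction and surface genes came next. Cdh5, VE-cadherin of the adherens junction, read 5.52 in the treated metastasis and 5.76, 6.16, 5.78 and 6.07 in metastasis 1 to 4. It read 6.09, 6.74 and 5.80 in treated bladder 1 to 3. Tumors ran from 5.52 in bladder tumor 2 through 6.14 to 6.99 in bladder tumor 6, the highest of all arrays, and the controls read 6.49, 6.06, 5.61, 6.24 and 6.26. The tumor range thus enclosed all controls. The means were 6.17 ± 0.45 in bladder tumor (n = 7) and 6.13 ± 0.33 in control bladder (n = 5), and the difference of 0.03 had a 95% interval of -0.41 to 0.48.

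Pecam1 (CD31), an adhesion molecule also carried by platelets and leukocytes, read 6.07 in the treated metastasis and 6.34, 6.09, 6.39 and 6.17 in metastasis 1 to 4. It read 6.46, 6.88 and 6.37 in treated bladder 1 to 3. Tumors ran from 6.28 through 6.48 to 6.70 and controls read 7.21, 6.72, 6.53, 6.33 and 6.28. Control bladder 1 and 2 lay above all tumors and the others within their range. The mean was 6.25 ± 0.14 in metastasis (n = 4) and 6.61 ± 0.38 in control bladder (n = 5), a difference of -0.36 with an adjusted p of 0.692 in limma. Without control bladder 1 alone Pecam1 was at -0.21, and without control bladder 1 and 2 at -0.13.

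Emcn, endomucin, had the widest spread of the 9 genes. It read 5.66 in the treated metastasis and 6.02, 6.21, 6.29 and 6.43 in metastasis 1 to 4. It read 6.07, 6.98 and 6.52 in treated bladder 1 to 3. Tumors ran from 5.45 in bladder tumor 2 through 6.40 to 6.86 in bladder tumor 6, and controls read 7.41, 7.20, 6.47, 5.93 and 6.28. As for Eng and Pecam1, control bladder 1 and 2 were the 2 highest of the controls. The means were 6.29 ± 0.51 in bladder tumor (n = 7) and 6.66 ± 0.63 in control bladder (n = 5), a difference of -0.37 with a 95% interval of -0.93 to 0.20 and an adjusted p of 0.999 in limma. For Emcn it was -0.18 without control bladder 1 and 0.07 without control bladder 1 and 2.

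Vwf, von Willebrand factor, separated metastases from controls without overlap in the deposited values, by a small margin. It read 4.98 in the treated metastasis and 5.19, 5.05, 5.21 and 5.19 in metastasis 1 to 4. It read 5.54, 5.30 and 5.30 in treated bladder 1 to 3, with tumors from 4.90 through 5.22 to 5.47 and controls at 5.54, 5.44, 5.22, 5.35 and 5.32. The highest metastasis (5.21) lay just under the lowest control (5.22), and Vwf was the dimmest member, with a mean of 5.27 over 20 arrays. Metastasis 1 (5.19) lay above its array median of 5.08, and control bladder 4 (5.22) below its own of 5.25. Relative to the array medians the gap therefore did not hold. In the deposited values such a gap, with metastasis lower, was found for 1 of the 9 members and for 1.95% of all genes. The means were 5.16 ± 0.08 in metastasis (n = 4) and 5.37 ± 0.12 in control bladder (n = 5), a difference of -0.21 with an adjusted p of 0.724 in limma. Without control bladder 1 and 2 the difference of Vwf was -0.13.

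**Figure D1:**
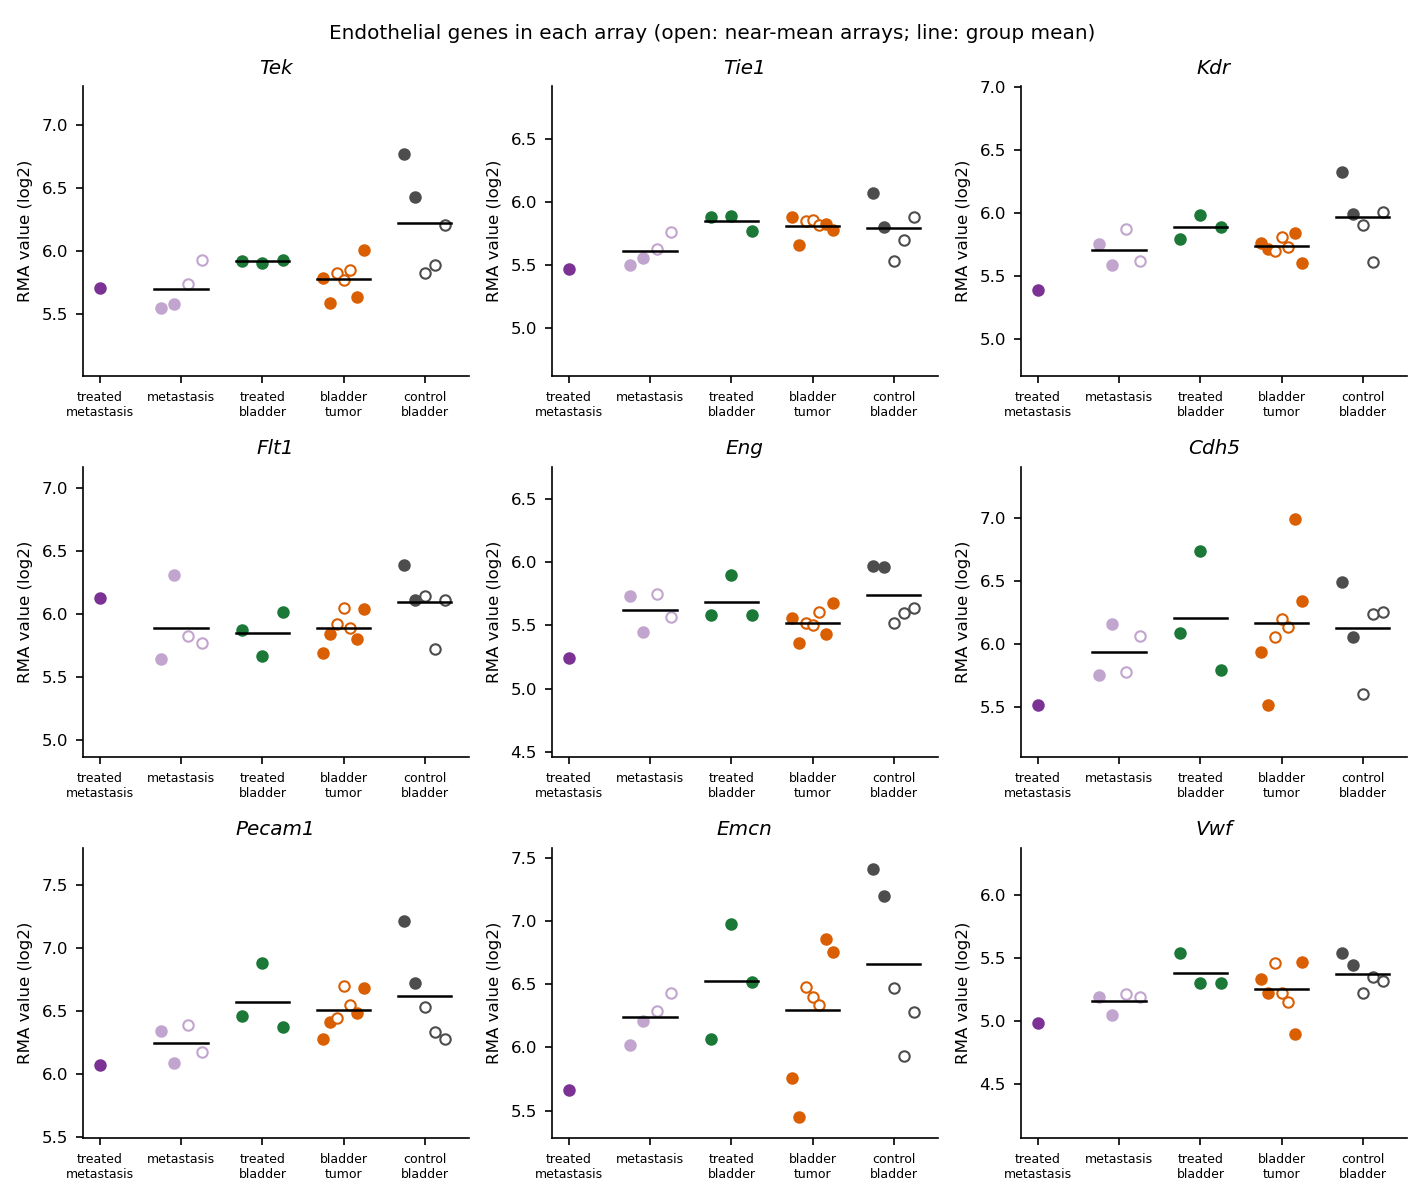
Deposited log2 value of each endothelial gene in each of 20 arrays, by group, with open symbols for the 8 near-mean arrays and a line at the mean of each group of more than 1 array; all panels span the same height in log2 units, centred on each gene. Control bladder 1 and 2 are the filled control symbols, and for Emcn they read 7.41 and 7.20 against 5.66 in the treated metastasis.

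Tumor against control asks what endothelial expression looks like once a tumor has formed. Of the 9 measured members 7 had a lower mean in bladder tumor, against 47.0% of all genes, and Tie1 and Cdh5 had a higher one. The median difference of the members was -0.21, against 0.01 over all genes. No member was called at adjusted p under 0.05, as was the case for 0.00% of the 30142 genes. At an unadjusted level of 0.05, 3 members (Tek, Kdr and Eng) were lower, where 1.96% of all genes were. That count was 5 without the near-mean arrays, 0 within them and 0 without control bladder 1 and 2. In no member did every tumor lie below every control, as 0.0730% of all genes did.

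Control bladder 1 and 2 made most of this difference. Without the near-mean arrays, which leaves those 2 controls against tumors 1, 2, 6 and 7, all 9 members were lower, with a median of -0.43 and Tek at -0.84 (adjusted p = 0.894 in limma). Within the near-mean arrays alone, with 3 tumors and 3 controls, the median was -0.02 and Tek was at -0.16. Without control bladder 1 and 2 the median was -0.04, Tek was at -0.19, and 4 members (Tie1, Cdh5, Pecam1 and Emcn) had a higher mean in tumors, between 0.07 and 0.13.

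Treated bladder was next compared with bladder tumor. Since the treated tissue is labelled bladder and not bladder tumor, an effect of the drugs cannot be told apart from a difference in tumor content. Of the 9 members 8 had a higher mean in treated bladder, against 49.4% of all genes, and Flt1 was lower at -0.04. The median difference was 0.13, against -0.00 over all genes. Differences ran from -0.04 for Flt1 to 0.23 for Emcn. limma called 0 members and 0.00% of all genes, with 0 members and 0.488% of all genes at an unadjusted level of 0.05. The 95% intervals of all 9 included 0; that of Tek ran from -0.20 to 0.47 and that of Emcn from -0.44 to 0.90. Treated bladder 2 decided much of it. Without that array the median was 0.05, Emcn was at 0.00, Cdh5 and Pecam1 were at -0.22 and -0.09, and Flt1 was at 0.06. Of the treated bladders, that array had the highest smooth muscle (8.18 against 6.68 and 6.45) and urothelium levels (8.28 against 6.92 and 7.88). It was also highest for fibroblast (7.14 against 6.28 and 6.67) and pericyte genes (5.78 against 5.70 and 5.71). For leukocyte, platelet and red cell genes it was not the highest. The part of these levels in the result was not tested.

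Treated bladder against control shares its arrays with both comparisons above. The members differed by a median of -0.05, against 0.01 over all genes, with 6 of 9 lower where 47.2% of all genes were, and the smallest unadjusted p belonged to Tek, at -0.30, and to Flt1, at -0.24. limma gave both an adjusted p of 1; it called 0 members and 0.00% of all genes, and 0 members against 0.763% of all genes passed an unadjusted level of 0.05. Without control bladder 1 and 2 the median was 0.10 and Tek was at -0.05.

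Among the untreated groups, metastasis had the lowest mean of every member but Eng, which was lowest in bladder tumor. Against control bladder all 9 members had a lower mean in metastasis, where 52.9% of all genes did, with a median of -0.21 against -0.01 over all genes. limma called 0 members and 0.00% of all genes, and 3 members (Tek, Kdr and Pecam1) were lower at an unadjusted level of 0.05, where 3.99% of all genes were. That count was 5 without the near-mean arrays, 0 within them and 1 without control bladder 1 and 2. Without the near-mean arrays, 2 metastases stood against 2 controls and the median was -0.41, with Tek at -1.03 (adjusted p = 0.173). Within the near-mean arrays the median was -0.09 and Tek was at -0.14, and without control bladder 1 and 2 it was -0.11, with Tek at -0.27. Against bladder tumor, 8 of 9 members were lower in metastasis, where 56.2% of all genes were, by a median of -0.08 against -0.03. Tie1 (-0.20) and Pecam1 (-0.26) had the smallest p in that comparison, and 1 member, Tie1, was lower at an unadjusted level of 0.05, where 3.49% of all genes were. The bladder tumor and control comparisons share metastasis arrays and are not independent.

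**Figure D2:**
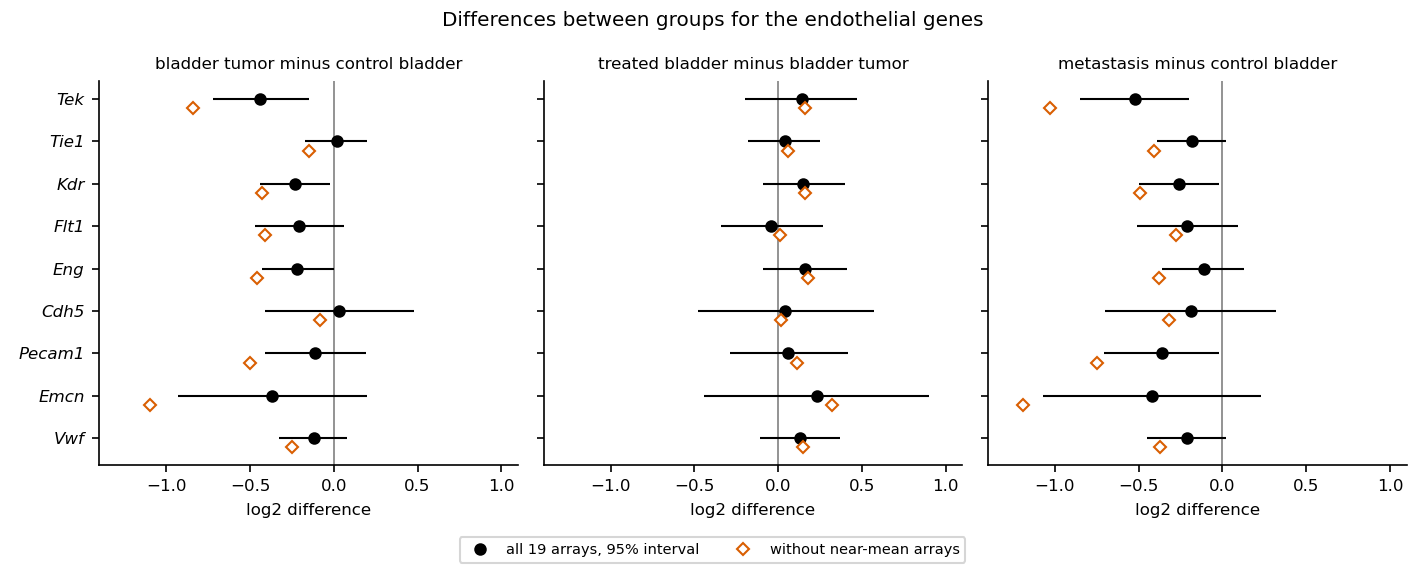
Log2 differences of the 9 genes for bladder tumor minus control bladder, treated bladder minus bladder tumor, and metastasis minus control bladder; filled circles with lines are limma estimates and 95% intervals from 19 arrays, open diamonds the estimates without the 8 near-mean arrays. Over the 19 arrays Tek is furthest below 0 in both comparisons with control, at -0.44 for tumor and -0.52 for metastasis. Without the near-mean arrays Tek is at -0.84 and -1.03, and Emcn is furthest below 0, at -1.10 and -1.19. Every interval of treated bladder minus bladder tumor includes 0.

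The single treated metastasis stood at the bottom of the range. In 7 of 9 members it read below all 4 untreated metastases, where 19.1% of all genes did, and Tek (5.71) and Flt1 (6.13) were the exceptions. Emcn read 5.66 in the treated metastasis, against a lowest value of 6.02 and a mean of 6.24 in metastasis, and Cdh5 read 5.52, against a lowest value of 5.76 and a mean of 5.94. The median difference of the members from the metastasis mean was -0.18, against -0.04 over all genes. With each array centred on its own median, 6 of 9 members lay below all 4, where 12.8% of all genes did. With 1 sample there is no test. In the same array the fibroblast list, of which 9 of 10 genes were measured, averaged 7.92, the highest of all arrays, and the urothelium list 5.23, the lowest; their part in the endothelial values was not tested.

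Taken per array, the 9 genes tended to move as a group outside the near-mean arrays. The median deviation of the members from their own means was -0.36 in the treated metastasis and ran from -0.26 to -0.04 in metastasis, from -0.00 to 0.18 in treated bladder, from -0.10 to 0.12 in bladder tumor and from -0.05 to 0.45 in control bladder. All 4 metastases were below 0 and all but 1 of the 9 genes were below their own mean in metastasis 1. At the other end, 9 of 9 genes were above their own mean in control bladder 1, and 8 of 9 in control bladder 2, treated bladder 2 and bladder tumor 7. In bladder tumor 2 none of the 9 was above its mean. Array medians were not removed from these values. They were 5.10 in the treated metastasis and 5.08 in metastasis 1, but 5.12 in treated bladder 2, whose level was high (0.18). The same score was not computed for sets of other genes.

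Smooth muscle and urothelium were both high in 4 of the 5 arrays with the highest endothelial levels. The mean of 12 smooth muscle genes was 8.45 in control bladder 1, 8.48 in control bladder 2, 8.18 in treated bladder 2 and 9.27 in bladder tumor 7, and 5.43 to 6.68 in all other arrays. By group that mean was 5.49 in the treated metastasis and ran from 5.46 to 6.65 in metastasis, from 6.45 to 8.18 in treated bladder, from 5.43 to 9.27 in bladder tumor and from 6.59 to 8.48 in control bladder. The urothelium list, with 12 of 13 genes measured, averaged 8.05 in control bladder 1, 8.40 in control bladder 2 and 8.28 in treated bladder 2. It averaged 9.67 in bladder tumor 7 and at most 7.88 in all other arrays. By group it ran from 6.92 to 8.28 in treated bladder and from 5.84 to 9.67 in bladder tumor. It ran from 6.87 to 8.40 in control bladder and from 5.34 to 6.84 in metastasis. Control bladder 6, which ranked 4 by endothelial level, had a smooth muscle mean of 6.67. Leukocyte genes, with 10 of 11 measured, averaged 8.06 and 7.34 in metastasis 1 and 2 against 5.39 in both control bladder 1 and 2. No such order held within bladder tumor, where the leukocyte mean was 5.51 in bladder tumor 1, of low endothelial level (-0.10), and 6.78 in bladder tumor 7, of high level (0.12). Bladder tumor 6 had high Cdh5 (6.99) and Emcn (6.86) beside little smooth muscle (5.43) and a leukocyte mean of 8.05. The part of tissue makeup in the endothelial differences was not tested.

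**Figure D3:**
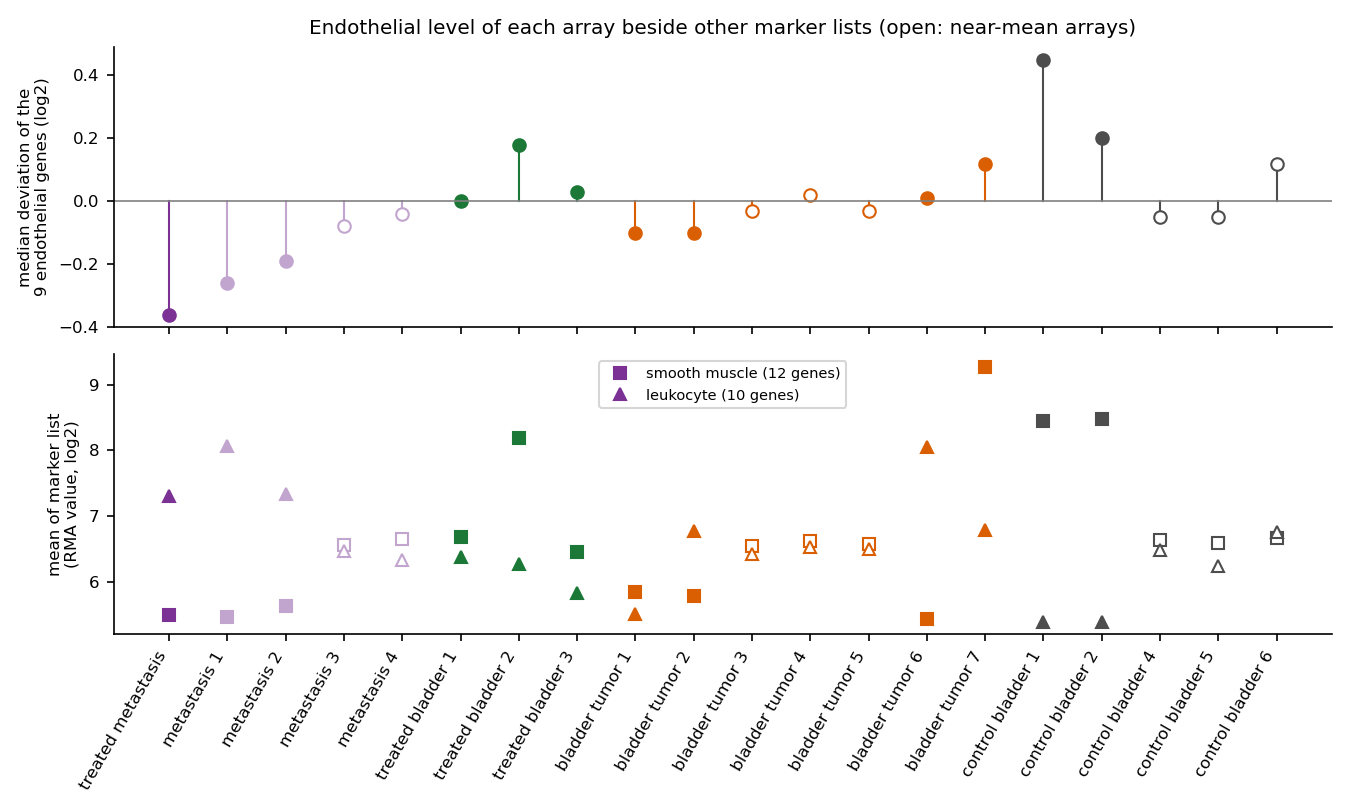
Upper panel, median deviation of the 9 endothelial genes from their means over 20 arrays, per array; lower panel, mean log2 value of 12 smooth muscle and 10 leukocyte marker genes in the same arrays, with open symbols for near-mean arrays. The treated metastasis is lowest at -0.36 and control bladder 1 highest at 0.45, and near-mean arrays lie between -0.08 and 0.12.

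Correlation among the members is given as a description, since all pairs share the same arrays. Over 20 arrays Pearson's r of the 36 pairs of members ran from -0.04 (Flt1 with Cdh5) through a median of 0.55 to 0.75 (Pecam1 with Emcn). Over the 12 arrays outside the near-mean set the median was 0.63, with Kdr and Pecam1 highest at 0.84. Within the 8 near-mean arrays the median was 0.04 and 19 of 36 pairs were above 0; those arrays were set apart for their small shared deviations, so low correlation and spread among them follow in part from that choice. Spread differed as well: the SD of Emcn was 0.64 over the 12 arrays and 0.18 over the 8, and that of Tek 0.37 and 0.15. Flt1 stood aside over the 12 arrays too, with r between -0.01 and 0.17 for 6 of its 8 pairs, as did Cdh5 with Vwf at 0.03.

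The 8 named genes most like the members over 20 arrays, by Pearson's r with the mean of the members' z-scores, were Npr2 (0.91), Cped1 (0.90), Tm4sf20 (0.89), Adgrl4 (0.89), Ltbp4 (0.89), Rbm24 (0.89), Gpc6 (0.88) and Dmd (0.88). Adgrl4 is an adhesion receptor of endothelial cells, Npr2 is a receptor for C-type natriuretic peptide, Ltbp4 a matrix protein that binds latent TGF-beta, and Dmd is dystrophin of muscle. Over the 12 arrays outside the near-mean set their r ran from 0.90 for Dmd to 0.95 for Npr2, and within the 8 near-mean arrays from -0.30 for Ltbp4 to 0.74 for Cped1.

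The wider vascular pathway was examined by 5 lists, which share a few genes, and in none of which limma called a gene in any of the 5 comparisons. Ligands (VEGF, angiopoietins, apelin and others, 11 of 11 measured) were not lower as a group in bladder tumor than in control: 7 were higher and 4 lower, with a median of 0.08. The smallest p belonged to Angptl4, a secreted regulator of lipoprotein lipase induced by hypoxia, at 0.22, and to Bmp10, a ligand of the Eng and Acvrl1 receptors, at 0.20, both with an adjusted p of 0.999. In treated bladder against tumor 10 of 11 ligands had a lower mean, by a median of -0.09, with Vegfd at -0.35 and Angptl4 at -0.15 (adjusted p = 1 for both in limma). In metastasis against tumor 8 of 11 ligands were lower, with Angpt2, the angiopoietin that antagonises Tek in many settings, at -0.32 and Angpt1, its activating ligand, at -0.43, both with an adjusted p of 0.825.

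Other receptors and their partners were mostly lower. Of 17 genes 16 were measured, and 13 had a lower mean in bladder tumor than in control, by a median of -0.12. Ptprb, the endothelial phosphatase VE-PTP that acts on Tek, was at -0.48 and Calcrl, a receptor for adrenomedullin, at -0.68, both with an adjusted p of 0.999 in limma. In metastasis against control 12 of 16 were lower, by a median of -0.14, led by Acvrl1 (ALK1) at -0.33 and Adgrl4 at -0.47, with adjusted p of 0.705 and 0.707.

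Endothelial transcription factors (20 of 20 measured) differed by a median of -0.04 in tumor against control, with 14 lower. Hey2, a Notch target linked to arterial identity, was at -0.35 and its relative Hey1 at 0.22, both with an adjusted p of 0.999 in limma. In metastasis against control 13 of 20 were lower, by a median of -0.06, with Hey2 at -0.34 (adjusted p = 0.676) and Nr2f2, a venous factor that stromal cells also express, at -1.06 (adjusted p = 0.692).

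Other endothelial surface and junction genes (22 of 23 measured) were lower in tumor for 16, by a median of -0.06. Cd34, a sialomucin shared with fibroblasts and blood progenitors, was at -0.54, while Plvap, which forms the diaphragms of fenestrated vessels, was at 0.35, each with an adjusted p of 0.999 in limma. Lymphatic genes (7 of 8 measured) were higher in tumor for 6, by a median of 0.06, with Flt4, the receptor for VEGF-C, at 0.15 and Pdpn, podoplanin, at 0.37. Lyve1, the hyaluronan receptor of lymphatic vessels and of some macrophages, was at 0.55 in metastasis against tumor and at 0.64 against control, with adjusted p of 0.844 and 0.719 in limma. The next smallest p in those comparisons belonged to Reln at -0.13 and Pdpn at 0.51, with adjusted p of 0.851 and 0.798. In each of them 3 lymphatic genes were higher and 4 lower in metastasis. The list median was -0.06 against tumor and -0.02 against control.

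Pericytes are the mural cells of capillaries. Of 10 genes 8 had a lower mean in tumor than in control, by a median of -0.15, with Abcc9, a subunit of a potassium channel, at -0.39 and Higd1b at -0.30 (adjusted p = 0.999 for both). Smooth muscle genes differed by a median of -0.86 in tumor against control, with 12 of 12 lower, among them Pcp4 at -0.98 and Acta2, smooth muscle actin, at -1.46 (adjusted p = 0.999 for both). The mean of this list was 8.45 and 8.48 in control bladder 1 and 2. It was 6.63, 6.59 and 6.67 in control bladder 4, 5 and 6, beside a median of 6.54 in bladder tumor. Neither list was refitted without control bladder 1 and 2. Platelet genes (6 of 8 measured) differed there by a median of -0.01, with Itga2b, an integrin of platelets, at 0.17 and Gp9, part of the platelet receptor for Vwf, at -0.23 (adjusted p = 0.999 for both). The platelet marker Pf4, stored in the same granules of platelets as Vwf, was at 0.97 in metastasis against tumor (adjusted p = 0.825) and at 0.77 against control (adjusted p = 0.707), the opposite sign to Vwf in both comparisons. Treml1, a receptor of platelet granules, was at 0.30 and 0.36 in the same comparisons (adjusted p = 0.825 and 0.676). The platelet list as a whole was split in both, with 3 genes higher and 3 lower. Its median was 0.03 against tumor and -0.00 against control.

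**Figure D4:**
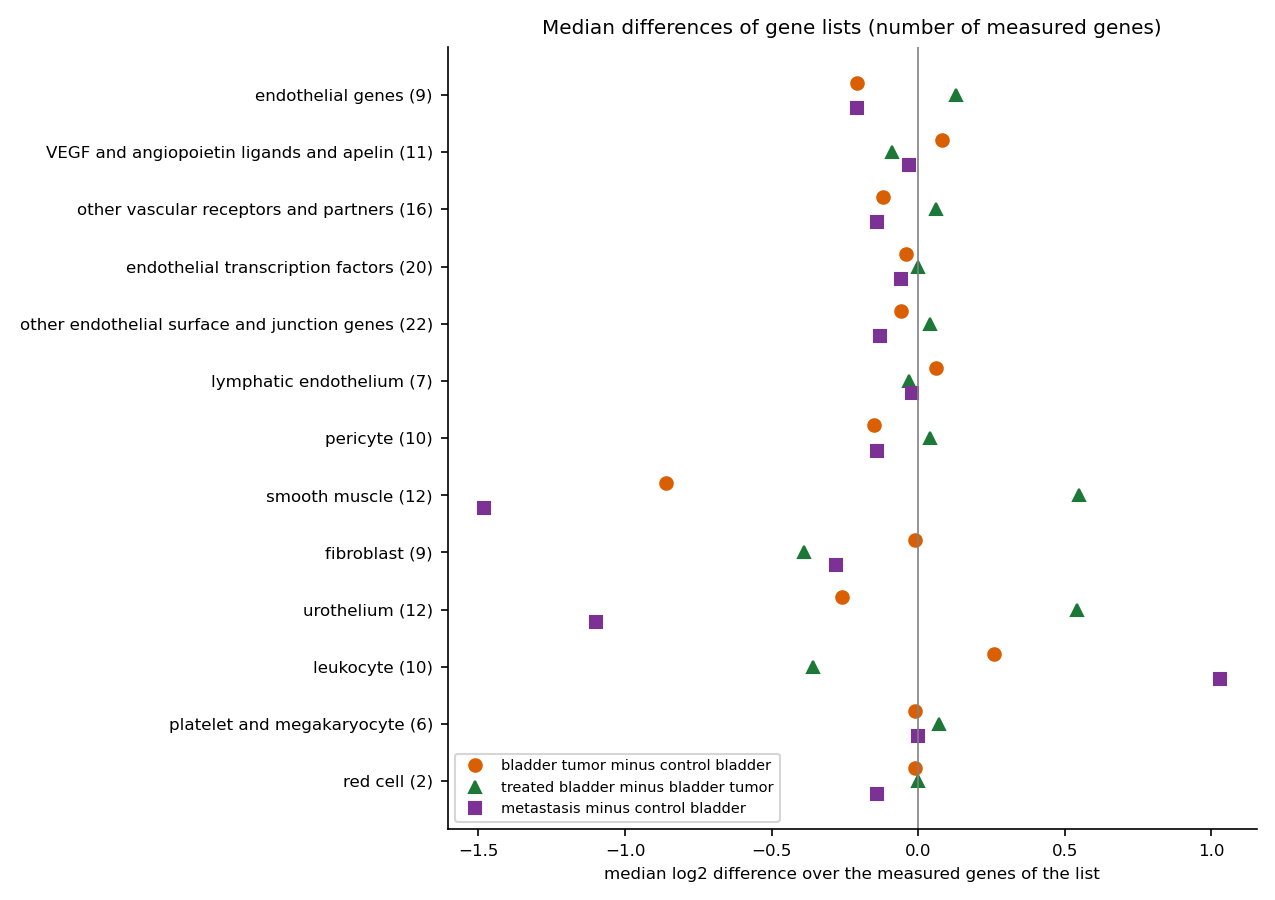
Median log2 difference of each gene list, with the number of measured genes in brackets, for bladder tumor minus control bladder (circles), treated bladder minus bladder tumor (triangles) and metastasis minus control bladder (squares); symbols of a list are offset vertically for clarity. The endothelial genes stand at -0.21, 0.13 and -0.21, and smooth muscle, urothelium and leukocyte lists spread more widely.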

How the data were processed

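The authors deposited log2 values that, per the submitters' processing notes, came from RMA as run by Affymetrix Expression Console; this includes background correction, quantile normalization between arrays and a summary over probes. The table holds 65956 rows and 20 columns, with array medians from 5.07 to 5.42; 284 rows hold values above 16, the log2 limit of a 16-bit scanner, for which the labels state no reason. Signal over background could not be computed, and the number of arrays limits the precision. The platform annotation gave 1 symbol to 30604 rows, several to 2146 and none to 33206; gene IDs linked 22818 rows to a GRCm38.p6 table and 827 symbols were brought up to date. Where a gene had several rows (355 genes), the brightest on average was used, which left 30142 genes.

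limma (version 3.58.1, R 4.3.3) fitted the group means of 19 arrays in 4 groups with lmFit and eBayes, without covariates, and p-values were adjusted over all genes by the Benjamini-Hochberg method, two-sided, with calls at adjusted p under 0.05. In data simulated from the real means and spread of 30142 genes, 200 genes were given a log2 change of 1 between tumor and control. The fit found 74.5% of these, and the other 4 comparisons gave 60.5% (treated bladder minus control) to 71%. The simulated noise was independent between genes and arrays and held no array sets. The planted change was larger than any member difference of the main fit, so these rates do not describe the members. The members and lists were chosen with earlier results of these data known. All members were named, the 8 genes most like them by correlation, and, for each list difference described, the 2 genes of that list with the smallest p. Same-numbered arrays were compared across groups: their deviations correlated from -0.51 to 0.44, above 0.1 in 3 of 20 pairs, so the numbers were not taken as pairs. Alternatives were array weights, a fit of the 2 compared groups, a replicate block, a robust trended prior, averaged rows, a filter on dim genes, centring by array median, a repeated quantile normalization and leaving out arrays. The near-mean arrays alone, that set as a covariate and leaving out control bladder 1 and 2 were added after the data were seen. Other engineered loci of these mice are not reported here.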

Additional observations from a re-analysis of the deposited data

Results flagged for a closer look

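In metastasis 2 Vwf read 5.05, lower than the other 3 metastases, which lay between 5.19 and 5.21, a gap wide enough to set this sample apart from its group. It was the only such sample in 30 sets of group and gene or array median examined, of which chance would mark about 1 in 20.

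Kdr, Eng and Vwf differed in direction between tissues under treatment, and this was not tested. Kdr was 0.15 higher in treated bladder than in bladder tumor, with all 3 treated bladders above the tumor mean, and -0.31 in the treated metastasis relative to the metastasis mean. Eng was at 0.16 in bladder and -0.38 in metastasis, and Vwf at 0.13 and -0.18. The same arrangement held for 6.25% of all genes. The rule also counted the reverse arrangement, and either of them held for 13.8% of all genes. The treated metastasis is a single sample.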

How the results depend on the processing

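Of the member differences, 31 were followed under the alternatives. These left out all members but Tek and Flt1 in treated bladder minus control, and all but Tie1 and Pecam1 in metastasis minus tumor. Of 947 recomputed values none was called, and 27 changed sign. The cause was not tested. The lowest adjusted p in limma was 0.169, for Tek in metastasis minus control with array weights. In treated bladder minus control, 6 members had a lower mean in the main fit. That count was 2 without control bladder 1 and 2, and 9 without the near-mean arrays. The filter on dim genes removed Vwf, and the near-mean arrays hold no treated bladder. The number of called members was 0 in all 5 comparisons under every setting run. The median difference of tumor minus control, -0.21, was -0.43 without the near-mean arrays, -0.02 within them, -0.04 without control bladder 1 and 2, and -0.25 to -0.13 with 1 array left out. That of treated bladder minus control, -0.05, was -0.28 without the near-mean arrays, 0.10 without control bladder 1 and 2, -0.21 with array weights (9 of 9 members lower), -0.11 with the near-mean set as covariate, -0.12 with the replicate block and -0.16 to 0.05 with 1 array left out. That of metastasis minus control, -0.21, was -0.41 without the near-mean arrays. With 1 array left out it ran from -0.31 to -0.17, and the medians of treated bladder minus tumor from 0.05 to 0.17 and of metastasis minus tumor from -0.12 to -0.04. In metastasis minus tumor, 1 member passed an unadjusted level of 0.05 in the main fit. That count was 0 with centring by array median, array weights or the replicate block. It was 2 in the fit of the 2 compared groups and without control bladder 1 and 2. After centring, 6 members were lower there, against 8. In tumor minus control 3 members passed that unadjusted level in the main fit. The count was 2 after centring, 1 in the fit of the 2 compared groups, 1 with the replicate block and 4 with array weights. In metastasis minus control it was 3 in the main fit, 1 after centring and 1 in the fit of the 2 compared groups. With the replicate block it was 4 there, and with array weights 7.

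Signs changed in tumor minus control for Tie1 (-0.05 with array weights, -0.15 without the near-mean arrays, -0.05 to 0.08 with 1 array left out) and Cdh5 (-0.10 with array weights, -0.08 without the near-mean arrays, -0.10 to 0.14 with 1 array left out). In the same comparison Pecam1 was at 0.19 in the near-mean arrays, at 0.13 without control bladder 1 and 2 and at -0.19 to 0.04 with 1 array left out, and Emcn at 0.18 and 0.07 in the first 2 settings. In treated bladder minus tumor Flt1 was at 0.00 after quantile normalization once more, 0.01 without the near-mean arrays and -0.12 to 0.06 with 1 array left out. Cdh5 was there at -0.04 with array weights, -0.00 with the near-mean set as covariate and -0.22 to 0.25 with 1 array left out, and Pecam1 at -0.04 with array weights and -0.09 to 0.17 with 1 array left out. In metastasis minus control Eng was at 0.08 in the near-mean arrays and 0.04 without control bladder 1 and 2, and Emcn at 0.14 and 0.01. With the replicate block Cdh5 was at 0.02 there, and the block gave medians of -0.22 for tumor minus control and 0.07, against 0.13, for treated bladder minus tumor, with no member called. In the treated metastasis 6 of 9 members lay below all untreated ones after centring, against 7.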
